A study of Mus musculus with 15 samples.

Results

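TDECs, the tumor-derived endothelial cells that the study grew from glioma stem cells, were compared with cells of the same culture scheme taken on day 2. The comparison used the 3 libraries labelled TDEC and the 3 libraries labelled TDEC day 2, which is 6 of the 15 samples of the study, and each library was placed by its sample description. Both groups came from 005, a mouse glioma stem cell line of C57BL/6 background that is kept in serum-free stem cell medium. Both were differentiated in the endothelial growth medium of the EGM-2 BulletKit in a hypoxic incubator at 1% oxygen, so medium and oxygen were shared and the time in culture differed. The TDEC descriptions give no day, and these libraries were taken as the day 5 cells that the paper describes. The other samples of the study were undifferentiated 005 cells, TDECs given the antidepressant sertraline, and mouse brain microvascular endothelial cells (MBMECs), and they enter only an alternative fit of all 15 libraries. Both compared groups derive from 1 line, which limits what they can stand for. The sample descriptions do not say whether replicates were separate cultures, so the p-values measure the spread between these libraries, which may be technical.

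Cells that leave the cell cycle stop making the enzymes of DNA replication and the motors and kinases of mitosis, and genes of both kinds are switched together by E2F transcription factors and by the DREAM and MuvB complexes. The integrated stress response is a pathway in which kinases that sense starved amino acids, misfolded protein or other damage slow translation and raise the transcription factor ATF4, while the unfolded protein response enlarges the folding capacity of the endoplasmic reticulum (ER). The extracellular matrix of vessels is built from laminins, collagen IV and nidogens in a basement membrane, around which collagen fibrils and glycoproteins are laid.

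The libraries held 12049384 to 13642496 counts on day 2 and 11283680 to 12455832 counts in TDECs. Pairs of TDEC libraries differed by a chi-square of 2.29 to 2.54 per gene, on a scale where sampling noise alone comes to about 1. Replicates 1 and 2 of day 2 differed by 2.46, and replicate 3 stood apart from them at 10.37 and 10.89. Where leaving out this library changed a call or the sign of a printed log2 fold change, the value without it is given as well. A list of 30 endothelial markers was read as a check of the label. Only 15 of them passed the filter on low counts, and the list as a whole took 0.012% to 0.015% of the counts on day 2 and 0.019% to 0.0208% in TDECs. Cdh5 (VE-cadherin), which joins endothelial cells, summed to 12 counts on day 2 and to 3 in TDECs. Tie1, Cldn5 and Sox17 had none in either group. Emcn, Icam2, Erg, Tek, Pecam1 and Vwf stood below 2 CPM in both group means. The highest members were Ets1 and Plvap, at 37.9 ± 7.13 and 35 ± 4.47 CPM on day 2 and 61.6 ± 0.535 and 57.5 ± 4.47 in TDECs (SD, n = 3), and Flt1. Many defining RNAs of endothelium were thus at or near 0 in both groups while a few members were not, and the name TDEC is used here as the label of the samples.

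Of 15508 genes tested, 1726 (11.1%) were higher and 1450 (9.35%) were lower in TDECs than on day 2 by edgeR's quasi-likelihood test. Both an adjusted p under 0.05 and a change of more than 2-fold, the cut-offs of the paper, were asked of a call, and only such genes are described here as risen or fallen. Fold changes are given as log2FC, the log2 fold change of TDECs over day 2, which is positive where TDECs were higher, and levels as CPM, counts scaled to library size. For 3151 of the called genes (99.2%) no library of one group overlapped with the other, and this holds for each gene named below as risen or fallen. The changes were large on both sides: 463 genes rose and 467 fell by more than 2 on the log2 scale, and 63 rose and 104 fell by more than 4. The median log2FC of all tested genes was 0.002. Where a gene list below had 0 calls in a direction, DESeq2 gave 0 as well, and the members past an unadjusted p of 0.05 in that direction are counted whatever their fold. Protein-coding genes made up 1323 of the rises and 1200 of the falls, and long intergenic RNAs 67 and 50. Along the first principal component, with 84.5% of the variance, the groups did not mix, and libraries lay 129 apart between groups and 45.2 within them on average. Without replicate 3 of day 2, 1862 genes were higher and 1569 lower. RNA was taken from whole cultures, so fewer cells of a kind and less RNA per cell cannot be told apart in any of these values.

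**Figure D1:**
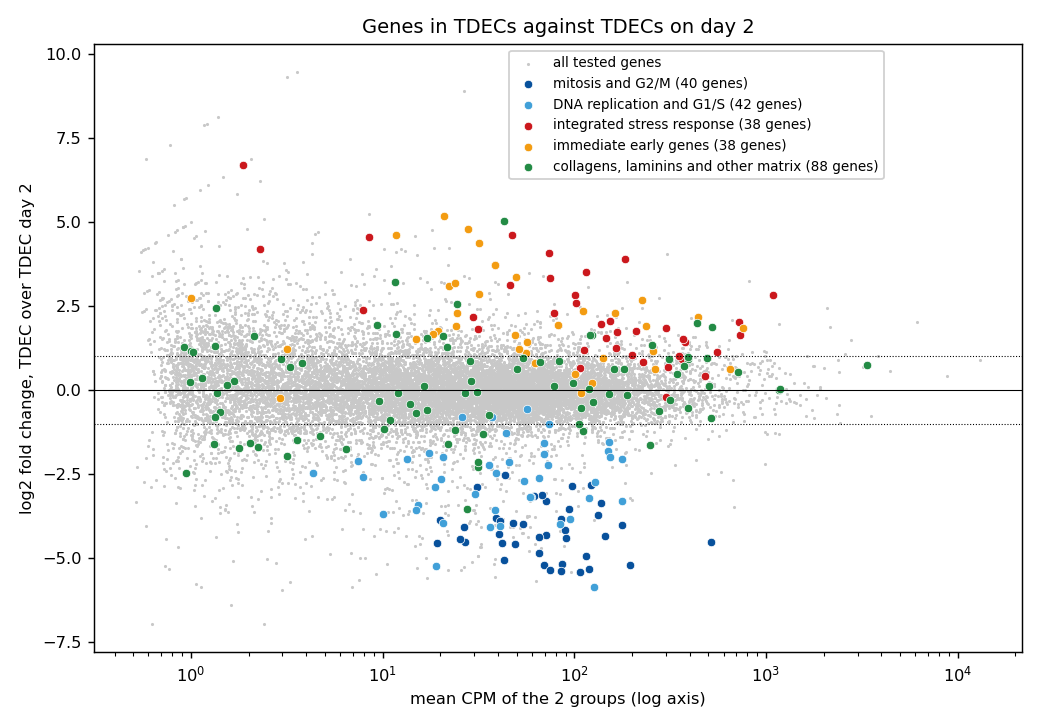
Log2 fold change of TDECs over TDECs on day 2 (vertical axis) against the mean CPM of the groups (horizontal log axis), each point 1 of 15508 tested genes, with dotted lines at the fold threshold. The 40 mitosis genes lie between −5.41 and −2.53, while the 88 matrix genes lie on both sides of 0.

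With genes below 10 CPM, mitochondrially encoded genes and genes with predicted or clone names set aside, Otog rose most. It encodes otogelin, a glycoprotein of the acellular membranes of the inner ear (chr7:46240987-46311434 in mm10). Its RNA was at 0.228, 0.0717 and 0 CPM on day 2 and at 52, 50.3 and 57.3 CPM in TDECs (log2FC 8.89, SE 0.25, adjusted p = 2.4e-10). It had 4 counts over the 3 day 2 libraries and 1885 over the 3 TDEC libraries. Next came Cftr, the chloride channel of epithelia (log2FC 5.23, SE 0.23, adjusted p = 8.5e-09), and the transcription factor gene Klf4 (log2FC 5.17, SE 0.19, adjusted p = 1.5e-09). Lama1, the α1 chain of laminin, rose from 1.97, 2.94 and 2.74 CPM to 80.8, 83 and 86.8 CPM. Ptgs2, the inducible prostaglandin synthase COX-2 (log2FC 4.80, SE 0.15), Ace, the angiotensin-converting enzyme (log2FC 4.76, SE 0.18), and Nupr1, a stress-induced chromatin protein (log2FC 4.62, SE 0.16), rose by nearly as much. The others of the 15 largest rises were the growth factor response genes Egr3 and Egr4, the lipoprotein receptor gene Apobr, Soat2, which esterifies cholesterol, the actin-binding Avil, Extl1, the calcium-binding Cabp1 and the peptidase gene Ecel1. These 15 were chosen among genes whose groups did not overlap.

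The 15 largest falls included Rrm2 of the DNA replication list (log2FC −5.87), which makes deoxyribonucleotides, and Kif11, Hmmr, Plk1 and Cenpf of the mitosis list. On neither list were Dscc1, Pbk, Depdc1b, the kinase gene Melk, the kinesin gene Kif14, Ska1 and Spc24 of the kinetochore, the helicase gene Pif1 and Esco2, which acetylates cohesin (log2FC −5.27). Dcx, doublecortin, a microtubule protein of migrating young neurons, fell from 46.7, 50.1 and 32 CPM to 0.991, 0.91 and 1.23 CPM (log2FC −5.35, SE 0.24, adjusted p = 8.5e-09).

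**Figure D2:**
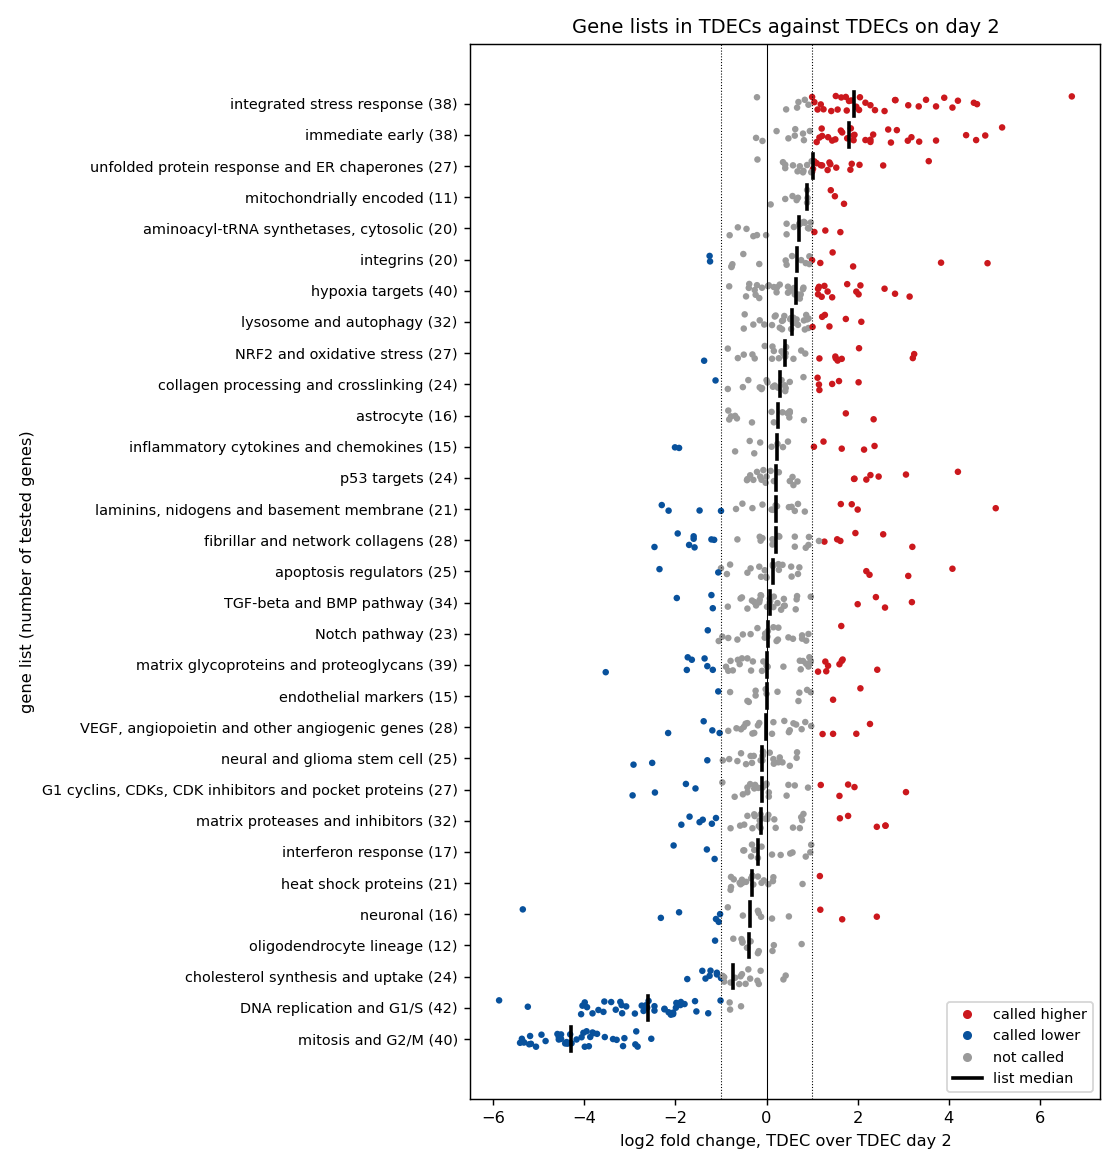
Log2 fold change (horizontal axis) of the tested members of each gene list with 11 or more of them, ordered by list median (black bar), with red points called higher, blue points called lower and grey points not called. List medians run from −4.29 for mitosis and G2/M to 1.91 for the integrated stress response.

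Genes of DNA replication and the G1/S transition fell together. Of 42 tested, 39 were lower (92.9%, against 9.35% of all tested genes) and 0 higher, and the list median was −2.60 against 0.002 over all genes. At an unadjusted p of 0.05 all 42 were lower and 0 higher, so the 3 others differed by a smaller fold only. Rrm2, the small subunit of ribonucleotide reductase, was at 232, 236 and 279 CPM on day 2 and at 3.78, 5.38 and 3.52 CPM in TDECs (log2FC −5.87, SE 0.13, adjusted p = 6e-11). Rrm1, the large subunit of the same enzyme, fell from 312, 312 and 337 CPM to 32.8, 31.3 and 32.5 CPM. The subunits of 1 enzyme thus fell by different amounts, −5.87 and −3.31 on the log2 scale.

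The replicative helicase MCM was represented by Mcm5, which went from 150.4, 159.8 and 165 CPM to 9.82, 10.5 and 9.51 CPM (log2FC −3.99, SE 0.08, adjusted p = 2.7e-11). Mcm2, another subunit of the same ring, fell less, from 227 ± 14.8 to 77.8 ± 4.23 CPM (SD, n = 3; log2FC −1.54). Uhrf1, which keeps DNA methylation through replication, fell from 174, 178 and 182 CPM to 12.7, 13 and 12.1 CPM. Pole, the catalytic subunit of leading-strand DNA polymerase, had a log2FC of −3.17 and Lig1, the ligase that joins Okazaki fragments, at a log2FC of −3.18. All 42 genes were lower in every TDEC library than in every day 2 library. Those that missed the fold threshold were E2f1, an activating E2F factor (30.7, 33.6 and 34.7 CPM against 16.6, 20.3 and 19.3 CPM; log2FC −0.81), and Gins4 and Gins2 of the GINS complex of the replication fork (log2FC −0.80 and −0.56). Together the list took 0.417% to 0.445% of the counts on day 2 and 0.0782% to 0.0814% in TDECs. E2f8, E2f7 and Mcm2 were picked from the list after their values were seen: E2f8 and E2f7, the repressor E2Fs that are themselves S phase genes, had log2FC values of −5.24 and −3.56.

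Mitosis and G2/M genes had a lower median still, at −4.29, and 40 of 40 tested fell, with log2FC values of −5.41 to −2.53 and 0 higher at an unadjusted p of 0.05. Kif11, the kinesin that pushes the spindle poles apart, went from 205, 206 and 215 CPM to 4.5, 5.29 and 4.84 CPM (log2FC −5.41, SE 0.08, adjusted p = 7.5e-12). Mki67 (Ki-67), the usual marker of cycling cells, went from 368, 376 and 402 CPM to 10.6, 10.3 and 10.5 CPM (log2FC −5.19, SE 0.07, adjusted p = 6.8e-12). Top2a, the topoisomerase that untangles sister chromosomes, went from 974, 995 and 1002 CPM to 39.4, 45.4 and 45.5 CPM (log2FC −4.51, SE 0.07, adjusted p = 7.5e-12), which was also among the 10 largest falls in CPM of called genes. Ccna2 (cyclin A2, log2FC −4.02), Cenpf of the kinetochore (log2FC −5.32) and Racgap1 of cytokinesis (log2FC −3.72) fell as well. In all 40 genes the groups did not overlap, and the spread between replicates was small beside the change. The list took 0.653% to 0.690% of all counts on day 2 and 0.0367% to 0.0387% in TDECs. Leaving out any 1 library kept 40 of 40 mitosis genes and 38 or 39 of 42 replication genes called lower.

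Promoters of the mitosis genes were searched for the letters that are known for this class, the cell cycle genes homology region (CHR; TTTGAA or TTCGAA) and the CCAAT box (CCAAT), on both strands. The windows were those of RefSeq on GRCm38.p6, the assembly called mm10, from 250 bases before to 50 bases after each gene start. For the 40 mitosis genes 33 were matched, with 35 windows. A CHR was found in 77.1% of these windows, against 19.2% of all 32851 windows and 13.6% of those of tested genes. A CCAAT box was found in 77.1% as well, against 37.4% of all windows. For the 39 replication genes called lower, 34 were matched, and 21.4% of their 42 windows held a CHR and 64.3% a CCAAT box. Over all genes called lower a CHR stood in 26.5% of windows, and over those called higher in 11.3%. These are matches of letters and no measurement of binding. The 3 mitosis genes of smallest p with a CHR before the gene start are shown by the 250 bases before that start, 5′ to 3′ on the strand of the gene, with CHR letters in capitals, since they hold the element in different numbers.
Mki67: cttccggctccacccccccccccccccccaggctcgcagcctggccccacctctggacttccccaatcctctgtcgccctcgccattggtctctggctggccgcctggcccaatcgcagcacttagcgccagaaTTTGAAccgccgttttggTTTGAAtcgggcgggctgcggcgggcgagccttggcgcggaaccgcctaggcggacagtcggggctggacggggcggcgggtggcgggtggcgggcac
Top2a: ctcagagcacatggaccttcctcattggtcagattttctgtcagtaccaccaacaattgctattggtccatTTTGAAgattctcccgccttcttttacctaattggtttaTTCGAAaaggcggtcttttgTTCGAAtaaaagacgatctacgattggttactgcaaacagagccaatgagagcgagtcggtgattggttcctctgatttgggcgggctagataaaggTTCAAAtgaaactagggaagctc
Kif11: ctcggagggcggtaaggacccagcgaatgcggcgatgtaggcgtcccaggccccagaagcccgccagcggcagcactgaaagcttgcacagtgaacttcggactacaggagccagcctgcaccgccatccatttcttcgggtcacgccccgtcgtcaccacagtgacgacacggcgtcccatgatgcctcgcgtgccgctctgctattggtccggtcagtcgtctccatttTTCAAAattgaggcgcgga
The Mki67 sequence is chr7:135716380-135716629, minus strand, with 2 CHR matches, the nearer beginning 98 bases before the start. Top2a is chr11:99024190-99024439, minus strand, with 4 matches, the nearest 23 bases before the start. Kif11 is chr19:37376132-37376381, plus strand, with 1 match 19 bases before the start. All 3 also hold CCAAT letters.

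Regulators of G1 did not follow 1 direction. Of 27 cyclins, kinases, inhibitors and pocket proteins of G1, 5 rose (18.5%) and 4 fell (14.8%, against 11.1% and 9.35% of all tested genes), with a list median of −0.09. Cdkn1a (p21), an inhibitor of cyclin-dependent kinases, rose from 31, 26.7 and 18.2 CPM to 207, 206 and 220.4 CPM (log2FC 3.06, SE 0.14, adjusted p = 1.2e-08). Cdkn2b (p15) rose from 50.9, 45.9 and 58.9 CPM to 123, 116 and 116 CPM. The antiproliferative genes Btg2 and Gas1 rose by a log2FC of 1.93 and 1.79, and Btg1 from 61.8, 64.8 and 42.3 CPM to 166, 177 and 169.6 CPM. In each of these 3 genes replicate 3 of day 2 was the lowest library.

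The inhibitors Cdkn2c (p18) and Cdkn2d (p19) went the other way. Cdkn2c fell from 76.9, 76.6 and 86.2 CPM to 13.1, 15.9 and 14.8 CPM (log2FC −2.45, SE 0.09) and Cdkn2d by 1.77 on the log2 scale. Rbl1 (p107), a pocket protein, fell from 53, 49.6 and 49.4 CPM to 7.02, 5.87 and 6.89 CPM (log2FC −2.94, SE 0.10, adjusted p = 1.2e-09), and Lin54, the DNA-binding subunit of MuvB, had a log2FC of −1.56. Ccnd1 and Ccnd2 encode D cyclins, which start G1, and were not called. Ccnd1 was at 1792, 1799 and 1722 CPM on day 2 and at 1454, 1495 and 1459.8 CPM in TDECs (log2FC −0.27, SE 0.04). Ccnd2 was at 2846, 2926 and 2935 CPM and 1785, 1792 and 1779.9 CPM (log2FC −0.70, SE 0.04), and their kinase gene Cdk4 at a log2FC of −0.36. Cdkn2a, which encodes p16 and p19Arf, had a log2FC of 0.91, with TDEC libraries at 690.2, 671 and 631 CPM against 344, 359.8 and 358 CPM.

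Of 24 targets of p53, the tumor suppressor that also induces Cdkn1a, 7 rose (29.2%, against 11.1% of all tested genes) and 0 fell, with a median of 0.21 and 4 lower at an unadjusted p of 0.05. Besides Cdkn1a and Btg2 these included Sesn2 (log2FC 2.28) and Gadd45a (log2FC 2.46), which slow growth under stress, and Bbc3 (PUMA), an activator of cell death, at 5.01, 5.81 and 3.23 CPM on day 2 and 21.3, 21.1 and 22 CPM in TDECs. Mdm2, which degrades p53 and is among its direct targets, had a log2FC of 0.59 and did not reach the fold threshold, and neither did Plk2 (log2FC −0.43) or Ei24 (log2FC −0.29). Several of the genes that rose are listed under the stress response as well, among them Sesn2 and Gdf15. Of 25 apoptosis regulators 4 rose (Trib3, Chac1, Hrk and Bbc3) and 2 fell, which is 16.0% and 8.0%, near the shares of all genes. Casp12, a caspase gene tied to ER stress, fell (log2FC −1.06) and lost its call without TDEC replicate 3. Without replicate 3 of day 2 the apoptosis list had 4 lower, and without TDEC replicate 3 it had 1.

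**Figure D3:**
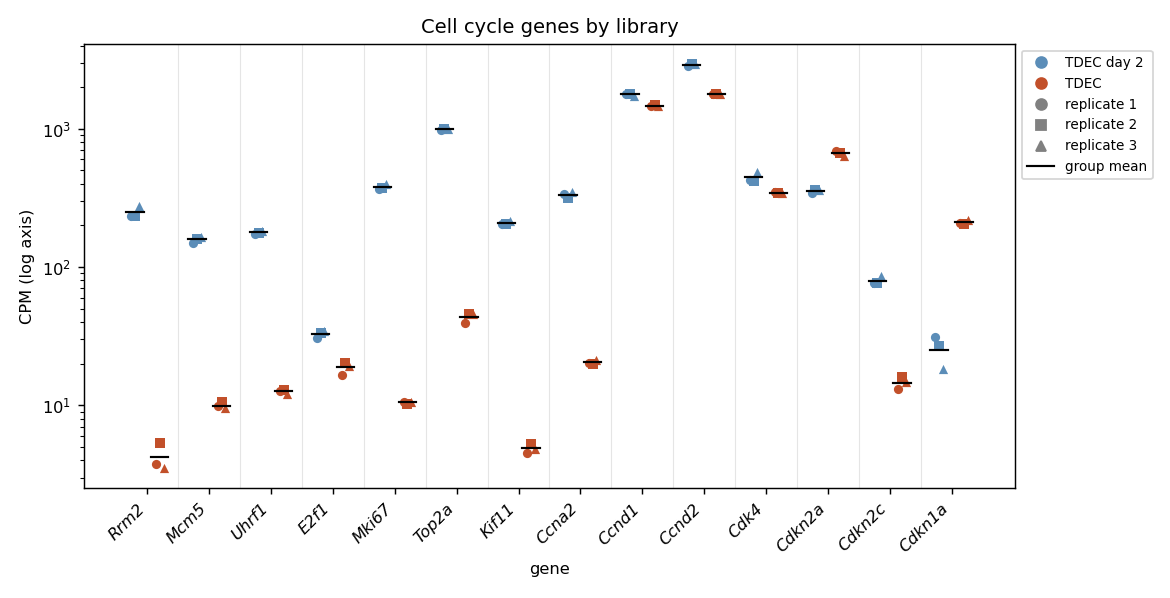
CPM by library (vertical log axis) of 14 cell cycle genes in the 3 day 2 and 3 TDEC libraries, with symbols for replicates and bars for group means. The genes of replication and mitosis from Rrm2 to Ccna2 are lower in every TDEC library, while Ccnd1, Ccnd2 and Cdk4 differ by less than the fold threshold and Cdkn1a is higher.

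Genes of the integrated stress response rose almost as a whole. Of 38 tested, 32 were higher (84.2%, against 11.1% of all tested genes) and 0 lower, also at an unadjusted p of 0.05, with a median of 1.91. Ddit3 (CHOP), the transcription factor of prolonged stress, was at 19.3, 20.2 and 16.4 CPM on day 2 and at 219, 200.0 and 217 CPM in TDECs (log2FC 3.50, SE 0.08, adjusted p = 8.2e-11). Ppp1r15a (GADD34), which restores translation by dephosphorylating eIF2α, rose from 22.2, 27 and 19.6 CPM to 346, 337 and 348 CPM (log2FC 3.90, SE 0.10, adjusted p = 9.8e-11). Atf3, a transcription factor that ATF4 induces, rose from 5.08, 5.81 and 5.31 CPM to 74.6, 67.6 and 71.8 CPM (log2FC 3.72, SE 0.10, adjusted p = 1.2e-10). All 3 changes exceeded the spread between replicates, and in 37 of the 38 genes every TDEC library was above every day 2 library.

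Chac1, which degrades glutathione, rose from 10.3, 9.89 and 8.29 CPM to 85.8, 79.2 and 81.8 CPM, and Trib3, a pseudokinase that acts on AKT, by a log2FC of 4.08. Slc3a2, the heavy chain that carries amino acid exchangers to the membrane, rose from 288, 297 and 274 CPM to 1146, 1182 and 1171 CPM. Stc2, a secreted glycoprotein, rose by a log2FC of 2.59. Among members picked after their values were seen, Atf4 itself rose from 206 to 552 CPM in the group means (log2FC 1.42), and the light chains Slc7a5 and Slc7a11 rose by a log2FC of 1.64 and 1.56. Fgf21, a stress hormone, had 1 count on day 2, in replicate 1, and 130 in TDECs.

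Among the abundant members that were not called, Psat1 and Phgdh make serine. Psat1 was at 404, 398 and 428 CPM on day 2 and 549, 543 and 567 CPM in TDECs (log2FC 0.43, SE 0.05), and Phgdh had a log2FC of 0.92. Ddit4 (REDD1), an inhibitor of mTORC1, had a log2FC of −0.21 with overlapping groups, and without replicate 3 of day 2 it was at −0.49. Gpt2, an alanine aminotransferase, had a log2FC of 0.70. The list took 0.389% to 0.469% of all counts on day 2 and 1.24% to 1.25% in TDECs. Leaving out any 1 library left 30 to 32 members higher. Of 20 cytosolic aminoacyl-tRNA synthetases, which charge tRNAs and answer to ATF4, 3 rose (15%, near the share of all genes): Wars (137, 128 and 141 CPM against 427, 401 and 417 CPM; log2FC 1.62), Sars (log2FC 1.29) and Cars (log2FC 1.05). The list median was 0.72, with 0 called lower and 5 lower at an unadjusted p of 0.05, and Gars, Eprs, Nars and Aars lay at 0.82 to 0.97, under the fold threshold with every TDEC library above day 2.

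The C/EBP-ATF response element (CARE; TGATGNAA on either strand) is the site through which ATF4 acts, and its letters were counted in the same promoter windows. Of the 32 stress response genes that rose 26 were matched, and 29.4% of their 34 windows held the element, against 3.97% of all windows and 2.22% of those of tested genes. Over all genes called higher the share was 4.64%, and over those called lower 2.68%. The 3 genes of smallest p with a match before the gene start are shown with the element in capitals, to show the letters on which the count rests.
Atf3: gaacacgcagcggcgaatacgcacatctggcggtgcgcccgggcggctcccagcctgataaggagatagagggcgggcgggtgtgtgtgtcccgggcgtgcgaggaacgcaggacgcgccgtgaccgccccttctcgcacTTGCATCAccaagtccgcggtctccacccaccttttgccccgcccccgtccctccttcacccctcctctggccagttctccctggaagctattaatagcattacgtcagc
Chac1: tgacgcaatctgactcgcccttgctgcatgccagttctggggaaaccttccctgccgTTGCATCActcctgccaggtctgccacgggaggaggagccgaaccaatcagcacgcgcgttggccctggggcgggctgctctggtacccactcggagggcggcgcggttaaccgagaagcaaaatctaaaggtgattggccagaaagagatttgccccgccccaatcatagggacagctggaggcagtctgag
Nupr1: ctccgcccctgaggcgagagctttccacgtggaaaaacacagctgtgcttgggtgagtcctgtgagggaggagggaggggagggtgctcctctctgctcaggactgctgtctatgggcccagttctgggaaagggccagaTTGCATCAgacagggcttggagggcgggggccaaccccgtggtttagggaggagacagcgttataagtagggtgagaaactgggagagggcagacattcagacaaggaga
The Atf3 sequence is chr1:191183334-191183583, minus strand, with the element 110 bases before the start. Chac1 is chr2:119350992-119351241, plus strand, with the element 193 bases before it, and Nupr1 is chr7:126625471-126625720, minus strand, with the element 110 bases before it. The table holds several starts for some genes, and the first with a match is shown.

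Of 27 genes of the unfolded protein response and the ER chaperones, 15 rose (55.6%, against 11.1% of all tested genes). None fell (0), also at an unadjusted p of 0.05, and the median was 1.02. Hspa5 (BiP), the main chaperone of the ER, went from 832, 801 and 1143 CPM to 3222, 3355 and 3565 CPM (log2FC 1.87, SE 0.11, adjusted p = 1.2e-07). Herpud1, of the machinery that removes misfolded protein from the ER, rose from 22.3, 21.2 and 24.2 CPM to 145, 122 and 132 CPM (log2FC 2.56, SE 0.09, adjusted p = 8.7e-10). Dnajb9 (ERdj4), a co-chaperone of BiP, rose by a log2FC of 2.04. Members that sense or relay the stress were among those that rose, with Atf6 (85.1, 83.9 and 73.1 CPM against 285, 281 and 302 CPM; log2FC 1.84), Ern1 (IRE1α, log2FC 1.53) and Xbp1 (log2FC 1.38). The lectin chaperones Canx and Calr and the disulphide isomerases Pdia3 and P4hb, which are abundant, had log2FC values of 0.36, 0.89, 0.41 and 0.81 and were not called. Replicate 3 of day 2 was the highest day 2 library for Hspa5, Calr and Pdia3, and without it 17 members were higher and Calr was at 1.05. Leaving out any 1 library gave 12 to 17 members higher, the lowest without replicate 1 or replicate 2 of day 2.

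Heat shock proteins of the cytosol, listed together with a pair of mitochondrial chaperonins, answer misfolding outside the ER. Of 21 tested, 1 was higher (4.76%, against 11.1% of all tested genes) and 0 lower. The median was −0.31, with 12 lower at an unadjusted p of 0.05. Hsp90ab1 was at 2742, 2698 and 2923 CPM on day 2 and at 1974, 2026 and 2125 CPM in TDECs (log2FC −0.45, SE 0.05), and Hspa8 had a log2FC of −0.31, or −0.14 without replicate 3 of day 2, Hsp90aa1 at a log2FC of −0.72 and the mitochondrial chaperonin Hspd1 at a log2FC of −0.54. The member called higher was Hspa1a at low levels (3.72, 1.51 and 2.32 CPM against 5.4, 5.29 and 6.23 CPM; log2FC 1.17), and without replicate 2 of day 2 it was not called. Without replicate 1 or replicate 2 of day 2, 1 member was called lower.

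Of 27 genes of NRF2 and the oxidative stress response 8 rose (29.6%, against 11.1% of all tested genes) and 1 fell (3.7%, against 9.35%), with a median of 0.41. Without replicate 3 of day 2, 9 were higher. Fth1, the heavy chain of the iron store ferritin, had the largest rise in CPM of the called genes that were ranked, from 2457, 2328 and 2438 CPM to 9927, 9886 and 9770.5 CPM (log2FC 2.03, SE 0.04, adjusted p = 2.5e-11). Its partner Ftl1 rose by a log2FC of 1.16. Hmox1, which degrades heme and frees its iron, rose from 137, 144 and 189 CPM to 1489, 1456 and 1489 CPM (log2FC 3.24, SE 0.11, adjusted p = 7.1e-10). Gclc, the first enzyme of glutathione synthesis, rose by a log2FC of 1.65, and Gstm1 and Srxn1, which use or spare glutathione and thioredoxin, by a log2FC of 1.52 and 1.51. The glutathione peroxidase gene Gpx1 fell from 194, 183 and 214 CPM to 82.4, 73.9 and 73 CPM, and Txnrd1, a further NRF2 target, had a log2FC of 0.27.

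Oxygen was set to the same level for both groups, and targets of the hypoxia-inducible factors were called in part. Of 40 tested, 14 rose (35.0%, against 11.1% of all tested genes) and 0 fell, with a median of 0.64 and 4 lower at an unadjusted p of 0.05. Ero1l, which oxidizes protein thiols in the ER, rose from 303, 306 and 196 CPM to 1908, 1873 and 1904 CPM (log2FC 2.82, SE 0.14, adjusted p = 2.1e-08). Vegfa, the vascular endothelial growth factor, rose from 558, 558 and 309 CPM to 1884, 1853 and 1833 CPM (log2FC 1.97, SE 0.18, adjusted p = 2.5e-06), or by 1.73 without replicate 3 of day 2, its lowest library. Slc2a1 (GLUT1, log2FC 1.77), the prolyl hydroxylases of collagen P4ha2 and P4ha1 (log2FC 2.02 and 1.44) and the oxygen sensor Egln1 (log2FC 1.21) rose as well. The most abundant members that were not called were glycolytic enzyme genes. Pgk1 was at 2373, 2404 and 1866 CPM on day 2 and at 1874, 1838 and 1927 CPM in TDECs (log2FC −0.24, SE 0.08). Eno1 had a log2FC of −0.45, Aldoa of 0.73 and Pkm of 0.03, or −0.06 without replicate 3 of day 2. Ero1l and Stc2 stand on the stress response list too, so the lists are not separate evidence.

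The lysosome and autophagy genes had 6 of 32 higher (18.8%, against 11.1% of all tested genes) and 0 lower, with a median of 0.56 and 4 lower at an unadjusted p of 0.05. Sqstm1 (p62), the adaptor that brings cargo to autophagosomes, rose from 264, 249 and 247 CPM to 1066, 1085 and 1063 CPM (log2FC 2.08, SE 0.05, adjusted p = 7.3e-11), and the cathepsin genes Ctsd and Ctsl by a log2FC of 1.38 and 1.28. Gabarapl1, of the autophagosome membrane, rose by a log2FC of 1.74. Cholesterol synthesis and uptake moved down: 8 of 24 fell (33.3%, against 9.35% of all tested genes) and 0 rose, with a median of −0.74 and 2 higher at an unadjusted p of 0.05. With 1 library left out 5 to 10 fell, the lowest without TDEC replicate 1, and 1 rose without replicate 2 or 3 of day 2 or TDEC replicate 2. Hmgcs1, an enzyme of the pathway, fell from 347, 339 and 410.1 CPM to 152, 155 and 154 CPM (log2FC −1.25, SE 0.07, adjusted p = 8.7e-08). Acat2 fell by 1.74 and Stard4, a carrier of cholesterol, by 1.41 on the log2 scale. Srebf2, the factor that drives the pathway, had a log2FC of −0.57, and its target Sqle at a log2FC of −0.46.

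Immediate early genes, which answer growth factors and stress within minutes, also rose broadly. Of 38 tested, 29 were higher (76.3%, against 11.1% of all tested genes) and 0 lower, also at an unadjusted p of 0.05. Their median was 1.81. Klf4 was at 0.835, 1.65 and 0.829 CPM on day 2 and at 42.2, 38.5 and 41.5 CPM in TDECs. Egr1 rose from 380.2, 363 and 245 CPM to 1142, 1217 and 1203 CPM (log2FC 1.85, SE 0.13, adjusted p = 3.7e-07), and Egr2, Egr3 and Egr4 by a log2FC of 3.35, 4.60 and 4.38. Fos, a subunit of the AP-1 factor, rose from 197, 189 and 93.5 CPM to 737, 718 and 705 CPM (log2FC 2.17, SE 0.21, adjusted p = 4.9e-06), or by 1.89 without replicate 3 of day 2, where it was lowest. Klf2, which laminar flow induces in endothelium, rose by a log2FC of 3.18. The ERK phosphatase genes Dusp6 and Dusp4 had log2FC values of 0.62 and 0.63, and Klf6 and Ier3 at a log2FC of 0.95 and 0.22, under the fold threshold. Without replicate 3 of day 2, 28 members were higher. Atf3 of the integrated stress response stands on this list too, so the lists are not wholly separate.

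**Figure D4:**
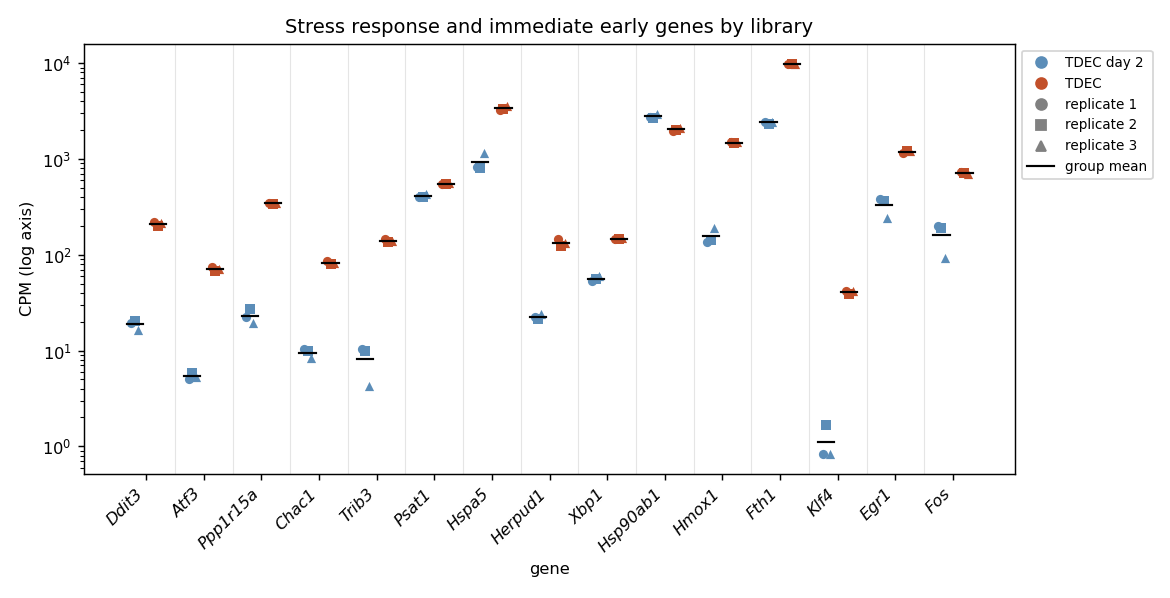
CPM by library (vertical log axis) of 15 genes of the stress responses and immediate early genes in the 3 day 2 and 3 TDEC libraries, with bars for group means. Psat1 and Hsp90ab1 differ by less than the fold threshold, and the other 13 genes are higher in every TDEC library.

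Matrix genes changed in both directions. Of 88 tested genes of collagens, basement membrane and matrix glycoproteins, 18 rose (20.5%, against 11.1% of all genes) and 19 fell (21.6%, against 9.35%), with a median of 0.13. The list took 1.25% to 1.36% of all counts on day 2 and 1.64% to 1.66% in TDECs. Leaving out any 1 library gave 16 to 20 higher and 18 or 19 lower.

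Of 21 genes of the basement membrane 4 rose, all laminin chains, and 4 fell. That is 19.0% in each direction, against 11.1% higher and 9.35% lower of all tested genes. Lama1 went from 1.97, 2.94 and 2.74 CPM to 80.8, 83 and 86.8 CPM (log2FC 5.03, SE 0.12, adjusted p = 7.2e-11; chr17:67697265-67822645 in mm10). Lama5, the α5 chain of mature vessel walls, rose from 178, 189 and 159 CPM to 709, 696 and 700.3 CPM (log2FC 2.00, SE 0.06, adjusted p = 6.6e-10). Lama4, the α4 chain that endothelium lays down, rose from 211, 204 and 264 CPM to 813, 799 and 862 CPM (log2FC 1.87, SE 0.09, adjusted p = 1.5e-08). Lamb2, a β chain, rose by a log2FC of 1.63. The β1 and γ1 chains with which these assemble were not called: Lamc1 was at 476, 479 and 781 CPM and 837, 843 and 866 CPM (log2FC 0.55, SE 0.15) and Lamb1 at a log2FC of 0.49. Replicate 3 of day 2 was the highest day 2 library for both, and without it they were at 0.82 and 0.72.

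Nid2, a nidogen that links laminin to collagen IV, fell from 43.8, 45.7 and 64.6 CPM to 11.3, 11.9 and 11.6 CPM (log2FC −2.15, SE 0.15, adjusted p = 3.6e-07). Fras1, of the membrane between epithelium and mesenchyme, fell from 32.1, 42.6 and 81.2 CPM to 10.3, 11 and 10.3 CPM (log2FC −2.30, SE 0.30), or by 1.83 without replicate 3 of day 2. Npnt (nephronectin, 146, 147 and 131 CPM against 75.6, 71 and 65.6 CPM) fell too, so near the threshold that 3 of 6 single-library omissions removed its call. Agrn, a heparan sulfate proteoglycan, had a log2FC of 0.62 and Dag1, the laminin receptor dystroglycan, at a log2FC of 0.11.

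Of 28 collagen genes, 6 rose (21.4%, against 11.1% of all tested genes) and 8 fell (28.6%, against 9.35%), with a median of 0.20. Among the most abundant that were not called were basement membrane collagens, with Col18a1, the source of endostatin, at 213, 214 and 218 CPM and 407, 391 and 425 CPM (log2FC 0.92, SE 0.05), Col4a1 at a log2FC of 0.62 and Col4a5 at a log2FC of −0.13. Col11a2 rose from 2.12, 3.37 and 1.24 CPM to 20.3, 20.6 and 22.3 CPM (log2FC 3.20, SE 0.24, adjusted p = 5.4e-07), while Col11a1, which encodes another chain of the same collagen XI, fell from 138, 154 and 172 CPM to 64.6, 65.6 and 70 CPM (log2FC −1.21, SE 0.08, adjusted p = 3.1e-07). The chains of 1 collagen thus moved in opposite directions, with no overlap of libraries in either. Col20a1 (log2FC 2.56), Col4a4 (log2FC 1.95) and Col7a1, the anchoring fibril of skin (log2FC 1.55), rose from low levels. Col12a1, which decorates fibrils, fell from 27.2, 32.8 and 39.4 CPM to 11.4, 9.76 and 11.6 CPM, and Col5a2 had a log2FC of −1.15. Col4a6, called higher at about 1 CPM, lost its call under 4 of 6 single-library omissions, and was at 0.96 without replicate 3 of day 2.

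Of 39 matrix glycoproteins and proteoglycans, 8 rose (20.5%, against 11.1% of all tested genes) and 7 fell (17.9%, against 9.35%). Leaving out any 1 library gave 6 to 10 higher and 6 to 8 lower, with 10 higher without replicate 3 of day 2. Fbln1 (fibulin-1) fell from 50.8, 48.1 and 52.6 CPM to 4.68, 3.72 and 4.67 CPM (log2FC −3.53, SE 0.11, adjusted p = 6.4e-10), and Emilin1, a glycoprotein of elastic fibres, from 347, 349 and 438 CPM to 122, 123 and 118 CPM. The related fibulin genes rose, Fbln2 by a log2FC of 1.67 and Fbln5 from 6.98, 10.8 and 12.9 CPM to 30.5, 30.5 and 31.6 CPM. Thbs1 (thrombospondin-1), an inhibitor of angiogenesis, rose from 32.9, 36.1 and 106 CPM to 194, 181 and 171 CPM (log2FC 1.65, SE 0.34, adjusted p = 0.0013), or by 2.39 without replicate 3 of day 2, its highest day 2 library. Cyr61 (CCN1), an angiogenic matrix protein, rose by a log2FC of 1.35. Sparc stayed level in the group means, at 1167 ± 123 and 1166 ± 34.4 CPM (SD, n = 3; log2FC 0.00, SE 0.07), and Igfbp3 and the brain proteoglycan Ncan had log2FC values of 0.75 and −0.84. Ogn, called lower, was at −0.93 without replicate 3 of day 2 and was then not called.

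Genes that fold and cross-link collagen had 6 of 24 higher (25.0%, against 11.1% of all tested genes) and 1 lower (4.17%, against 9.35%): the hydroxylases P4ha1, P4ha2, P3h3 (log2FC 1.12) and P3h2 (log2FC 1.15), the chaperone Fkbp10 (log2FC 1.16) and Loxl4 (log2FC 1.59). The one that fell, Pcolce (log2FC −1.12), was at −0.99 and not called without replicate 3 of day 2. Without replicate 1 of day 2 the list had 2 lower. Of 32 matrix proteases and inhibitors, 5 rose (15.6%, against 11.1% of all tested genes) and 6 fell (18.8%, against 9.35%). Mmp11 rose from 6.6, 7.88 and 4.56 CPM to 41.4, 36.7 and 39 CPM (log2FC 2.61, SE 0.16, adjusted p = 1e-07). The membrane protease genes Mmp15 and Adam12 fell, Mmp15 from 427, 429 and 379 CPM to 149, 149 and 148 CPM (log2FC −1.47, SE 0.06, adjusted p = 5e-09) and Adam12 by 1.87 on the log2 scale.

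Integrins, the receptors of the matrix, had 6 of 20 higher (30%, against 11.1% of all tested genes) and 2 lower (10%, near the share of all genes). Leaving out any 1 library gave 5 to 7 higher, with 7 without replicate 3 of day 2. Itgb5, called higher at a log2FC of 1.0, lost its call under 4 of 6 single-library omissions. Itga11, Itgb2 and Itgb4, also called higher, had low TDEC means of 4.47, 1.76 and 4.57 CPM. Itga11, a collagen receptor, rose from 0.304, 0.287 and 0.332 CPM to 3.78, 4.96 and 4.67 CPM (log2FC 3.83, SE 0.33, adjusted p = 2e-06). Itgb4, which binds laminin in hemidesmosomes, rose by a log2FC of 1.90 and the collagen receptor gene Itga1 fell by 1.24 on the log2 scale. The common β1 chain Itgb1 was at 1518, 1503 and 1744 CPM and 1403, 1435 and 1433 CPM (log2FC −0.16, SE 0.06), and Itga6, a laminin receptor, at a log2FC of 0.86. In the TGF-beta and BMP pathway 4 of 34 rose and 3 fell, 11.8% and 8.82% and so about the shares of all genes. Without replicate 3 of day 2, 6 members of this pathway were higher in place of 4. The ligands Tgfb1 (log2FC 3.19), Bmp2 (log2FC 2.60) and Inhbb (log2FC 2.40) and the co-receptor Tgfbr3 (log2FC 2.00) rose, and Acvrl1 (ALK1, log2FC −1.97), Bmpr1b (log2FC −1.21) and Bmp7 (log2FC −1.18) fell. Tgfb1 stayed low, at 0.835, 0.717 and 0.497 CPM against 7.2, 6.95 and 4.92 CPM. Their targets Id2 and Id3 had log2FC values of −0.54 and −0.57.

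**Figure D5:**
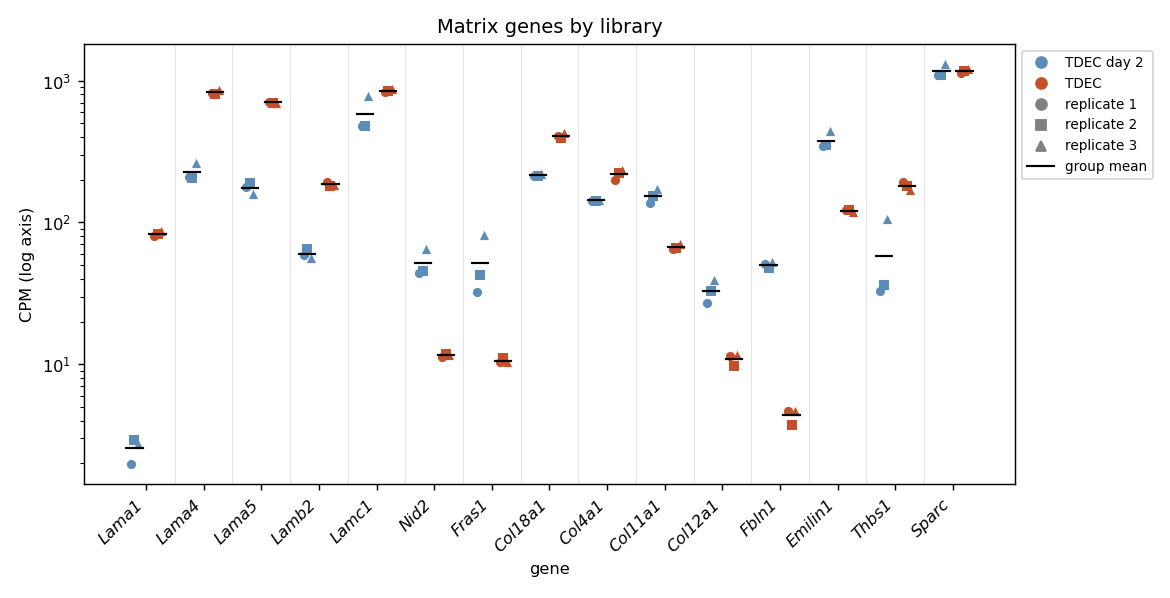
CPM by library (vertical log axis) of 15 matrix genes in the 3 day 2 and 3 TDEC libraries, with symbols for replicates and bars for group means. Lama1, Lama4, Lama5 and Lamb2 are higher and Nid2, Fras1, Fbln1 and Emilin1 lower in every TDEC library, and replicate 3 of day 2 is the highest day 2 library for Lamc1, Nid2, Fras1 and Thbs1.

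Of the 15 tested endothelial markers 2 rose and 1 fell, 13.3% and 6.67% beside 11.1% and 9.35% of all genes, with a median of −0.00. Flt1, a VEGF receptor that also acts as a decoy, rose from 16.3, 13.6 and 15 CPM to 44.3, 40.4 and 38.6 CPM (log2FC 1.46, SE 0.10, adjusted p = 3.1e-07), and Mmrn2 rose at about 1 CPM (log2FC 2.06). Kdr, the main VEGF receptor, was at 3.87, 3.23 and 9.12 CPM on day 2 and 4.41, 3.8 and 3.77 CPM in TDECs (log2FC −0.42, SE 0.35, adjusted p = 0.32), and without replicate 3 of day 2 its difference turned to 0.16. Pecam1 (CD31) was at 0.759, 1.22 and 1.91 CPM and 0.63, 0.827 and 0.738 CPM (log2FC −0.80, SE 0.43, adjusted p = 0.13), with −0.44 without replicate 3 of day 2 and −1.07, then called lower, without replicate 1. Tal1 (log2FC −1.06) lost its call without TDEC replicate 1 or TDEC replicate 3, and without replicate 1 of day 2 there were 2 markers lower. The receptor gene Tek (Tie2) and Cd34 had too few counts to be tested, at 0.455, 0.0717 and 0.497 CPM and 0.304, 0.717 and 1.24 CPM on day 2 and at 0.54, 0.413 and 0.246 CPM and 0.54, 0.744 and 0.328 CPM in TDECs.

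Of 28 angiogenic ligands and receptors 4 rose and 4 fell, which is 14.3% in each direction, not far from the shares of all genes. Besides Vegfa and Flt1, the receptor genes Met (log2FC 1.23) and Pdgfrb (log2FC 2.27) rose, and Pgf (log2FC −1.19, and not called without replicate 2 of day 2) and the co-receptor gene Nrp1 (log2FC −1.03) fell. Nrp1 went from 43.3, 49.5 and 51.2 CPM to 23.8, 23.1 and 23.5 CPM, and without replicate 3 of day 2 it was at −0.99 and not called. Angpt1, the activating ligand of Tie2, fell from 1.14, 1.15 and 1.24 CPM to 0.36, 0.248 and 0.164 CPM, and Angpt2 was at 50.8, 52 and 56.9 CPM and 60, 53.8 and 60.1 CPM (log2FC 0.12, SE 0.08, adjusted p = 0.18).

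Neural and glioma stem cell markers had 0 of 25 higher and 3 lower (12%, near the share of all genes), with a median of −0.09 and 6 higher at an unadjusted p of 0.05. Fabp7, a lipid carrier of radial glia, fell from 917, 883 and 737 CPM to 135, 149.8 and 159.5 CPM (log2FC −2.51, SE 0.09, adjusted p = 1.4e-09), and Vim (vimentin) by 1.30 on the log2 scale. Nes (nestin) was at 583, 601 and 571 CPM and 594, 609 and 634 CPM (log2FC 0.07, SE 0.05, adjusted p = 0.26) and Prom1 (CD133) at a log2FC of 0.67, and Pou5f1 (OCT3/4) had no counts. Of 16 neuronal markers 3 rose (18.8%, against 11.1% of all tested genes) and 6 fell (37.5%, against 9.35%). Gad1, which makes the transmitter GABA, rose from 11.8, 11.2 and 6.22 CPM to 51.7, 54.3 and 52.2 CPM (log2FC 2.42, SE 0.17, adjusted p = 3.4e-07), while Dcx, Map2 (log2FC −1.05) and Syt1 (log2FC −1.92) fell. Rbfox3 (NeuN) had 10 counts on day 2 and 3 in TDECs.

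Of 16 astrocyte markers 2 rose (12.5%, near the share of all genes) and 0 fell: Apoe, the lipid carrier of glia, went from 23.8, 22 and 16.6 CPM to 107, 107 and 106 CPM (log2FC 2.35, SE 0.11, adjusted p = 1.2e-08), and Ndrg2 rose by a log2FC of 1.74, or 1.47 without replicate 3 of day 2. At an unadjusted p of 0.05, 5 astrocyte markers were lower, and 2 were called lower without replicate 3 of day 2 and 1 without replicate 1. Gfap was at 24.2, 21.4 and 10.9 CPM and 31.1, 35 and 33.9 CPM (log2FC 0.82, or 0.54 without replicate 3 of day 2 and 1.03, then called higher, without replicate 1). The oligodendrocyte list had 12 of 21 genes tested. Called lower was 1 (8.33%, against 9.35% of all tested genes), and 0 were higher (1 at an unadjusted p of 0.05). The 1 called lower became 3 without replicate 3 of day 2, 2 without TDEC replicate 1 or 3 and 0 without TDEC replicate 2. Olig2 had a log2FC of 0.16, or −0.03 without replicate 3 of day 2. Mural, fibroblast and leukocyte lists were mostly untested, with 7 of 16, 7 of 15 and 5 of 20 genes tested. The mural list had 2 higher (28.6%) and 1 lower (14.3%), the fibroblast list 2 and 2 (28.6% each), and the leukocyte list 1 and 1 (20.0% each). Over all tested genes the shares were 11.1% and 9.35%. Pdgfrb, on the mural and fibroblast lists, stayed under 5 CPM, at 0.911, 0.287 and 1.33 CPM against 3.78, 4.63 and 3.61 CPM. The leukocyte list took 0.00813% to 0.0084% of counts on day 2 and 0.0134% to 0.014% in TDECs. Its member that rose was Cd68, a lysosomal protein of macrophages, from 7.66, 8.82 and 6.96 CPM to 24.2, 29.7 and 29.7 CPM. The member that fell was P2ry12, at low levels, from 1.37, 0.932 and 0.995 CPM to 0.18, 0 and 0 CPM (log2FC −4.05, SE 0.77).

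Measured in CPM, which favours abundant genes, the largest rises of called genes after Fth1 were in Malat1, a nuclear non-coding RNA (705, 647 and 595 CPM against 3289, 3639 and 3611 CPM; log2FC 2.44, SE 0.07, adjusted p = 2.1e-10), and Gpi1, a glycolytic isomerase (log2FC 1.48). Gpi1 was at 1644, 1689 and 1074 CPM on day 2 and 4073, 4061 and 4175 CPM in TDECs, with replicate 3 of day 2 the lowest. Eef2, an elongation factor of translation, and Tpt1 rose by a log2FC of 1.01 and 1.08, and Eef2 was not called without replicate 3 of day 2 (0.97) or without TDEC replicate 1. The largest falls of called genes were in the tubulin gene Tubb5 (1594, 1558 and 1729.5 CPM against 358, 351 and 363 CPM) and in Mest, an imprinted gene (log2FC −3.49, or −3.26 without replicate 3 of day 2). Tuba1a, another tubulin gene, fell as well (log2FC −2.66). Ptn, a growth factor of glia, fell from 999, 982 and 964 CPM to 184, 184 and 174 CPM (log2FC −2.44, SE 0.05, adjusted p = 3.3e-11). Hnrnpa2b1, Tmsb4x and Ppia fell by 1.31, 1.28 and 1.24 on the log2 scale.

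Mitochondrially encoded genes took 2.160%, 2.102% and 2.355% of the counts on day 2 and 3.483%, 3.596% and 3.477% in TDECs. The difference of 1.31 percentage points had p = 0.1 by an exact two-sided permutation test over libraries, the smallest that 3 against 3 allow. Of 7 tested mitochondrial tRNA genes 5 rose and 0 fell, and 0 of 2 rRNA genes were called. Of 11 tested protein-coding genes of the mitochondrion, 3 rose (27.3%, against 11.1% of all tested genes). Of these 11, 0 fell, also at an unadjusted p of 0.05. The 3 that rose were mt-Co2, at 29.3, 22.6 and 19 CPM and 112, 78.4 and 41.8 CPM (log2FC 1.70), mt-Co3 (log2FC 1.50) and mt-Atp6, at 52.4, 17.1 and 20.8 CPM in TDECs (log2FC 1.41, or 0.75 and not called without TDEC replicate 1). Leaving out 1 library gave 2 to 4 of the protein-coding genes higher. The abundant mt-Co1 was at 9430.2, 8989 and 9188 CPM and 16835, 17263 and 16894 CPM (log2FC 0.89, SE 0.04). The TDEC libraries differed widely in mt-Co2, and how reads with several alignments were counted is not given in the sources used here, so the 3 rises are uncertain. Leaving out mitochondrially encoded genes from the library sizes and from the test gave 1718 higher and 1447 lower of 15488 genes.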

How the data were processed

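Poly(A) RNA was made into directional libraries by the authors, sequenced on an Illumina NovaSeq, and counted per gene. Per the labels the processing used bcl2fastq 2.19, Trimmomatic 0.38, HISAT2 2.1.0, featureCounts 1.6.3 and mm10. The deposited table holds raw counts for 49585 genes in 15 samples, not normalized. The annotation release, the strand setting and the treatment of reads with several alignments are not given in the sources used here, so counts of overlapping, antisense or near-identical genes are uncertain. The genes, lists and tests were chosen with earlier results of these data known.

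Day 2 and TDEC libraries were tested with edgeR 4.0.16 (R 4.3.3): filterByExpr with a minimum count of 10, TMM scaling, glmQLFit and glmQLFTest (two-sided), and Benjamini-Hochberg adjustment over 15508 genes. Calls needed an adjusted p under 0.05 and an absolute log2 fold change above 1. The SE is the absolute log2 fold change divided by the square root of F. CPM values are TMM-scaled and, unless an SD is given, printed by library in the order of replicates 1 to 3. The script was tested on simulated data. Principal components used log2 CPM with a prior count of 2.

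Genes were named by rule: the 15 largest rises and falls in log2 fold change without overlap, where the higher group reached 10 CPM, the 10 largest in CPM, of each list up to 6 called per direction by smallest p and up to 4 not called by highest CPM, and genes that the paper names. The rankings by fold change and by CPM left out predicted genes, clone names, mitochondrially encoded genes and IDs without a symbol. The 32851 promoter windows of 27025 genes came from RefSeq (GRCm38.p6). Alternatives were DESeq2 1.42.0, other scalings and filters, glmTreat, all 15 libraries in 1 fit, a replicate block, and leaving out each library. Some genes are not reported here.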

Additional observations from a re-analysis of the deposited data

How the results depend on the processing

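Tested against a fold change of 2 itself (glmTreat), 892 genes were higher and 818 lower, and 9 matrix genes in place of 19 were lower. This test asks for more than the fold and p thresholds applied apart. Under every other alternative the counts of genes higher and lower, of replication, mitosis and stress response genes, and of matrix genes stayed within 1.5 times of those reported. DESeq2 gave 1694 and 1412, size factors by RLE 1736 and 1433, plain library totals 1610 and 1583, a filter of at least 1 count 2165 and 1677 of 26392 tested, and a fit of all 15 libraries 2006 and 1575. Higher genes made up 54.3% of the calls and 50.4% with plain totals. Of the 3176 calls, 92.3% to 99.7% were kept by these settings and by leaving out 1 library, against 53.8% with glmTreat, and 0 took the opposite direction. With 1 library left out, 1688 to 1862 genes were higher and 1459 to 1569 lower, and the mitochondrial share differed by 1.261 to 1.387 percentage points. Equal replicate numbers do not pair the samples: the correlation of their deviations was 0.00211, −0.00553 and 0.0191. A fit with the replicate block gave 1710 higher and 1431 lower genes and lost 0 calls of named genes. At this depth genes of a few counts, such as most endothelial markers, could not be tested.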

Other observations

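Signalling and immune genes are given with their log2FC, the log2 fold change of TDECs over day 2. Of 15 tested inflammatory cytokines and chemokines 5 rose (33.3%, against 11.1% of all tested genes) and 2 fell (13.3%, against 9.35%). Cx3cl1 (fractalkine), a membrane-bound chemokine of neurons and endothelium, rose from 25.7, 28 and 35.8 CPM to 134, 121 and 137 CPM (log2FC 2.14, SE 0.11, adjusted p = 3e-08 by edgeR's quasi-likelihood test). Lcn2 (lipocalin-2), an iron-binding acute phase protein, rose from 7.74, 5.16 and 5.89 CPM to 32, 32 and 33.4 CPM (log2FC 2.37, SE 0.14, adjusted p = 9.3e-08), and Lif, a cytokine of stem cells, by a log2FC of 1.04. Il33, an alarmin held in the nucleus, fell from 113, 112 and 91 CPM to 26.7, 26 and 31.1 CPM (log2FC −1.92, SE 0.10, adjusted p = 4.3e-08). Vcam1, an adhesion molecule for leukocytes, fell from 33.5, 34 and 58.2 CPM to 11.7, 11.2 and 8.11 CPM (log2FC −2.01, or −1.72 without replicate 3 of day 2). The NF-kappaB feedback genes Nfkbia and Tnfaip3 had log2FC values of 0.47 and −0.14.

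Of 17 tested interferon response genes 0 rose (4 at an unadjusted p of 0.05 in edgeR's test, and 0 called by DESeq2). Of the same genes 3 fell (17.6%, against 9.35% of all tested genes), among them Ifit2 (21.3, 18.4 and 16.7 CPM against 4.05, 4.88 and 4.75 CPM; log2FC −2.04, SE 0.15, adjusted p = 6.2e-07) and Tap1 (log2FC −1.31). Without replicate 2 of day 2 there were 2 genes called higher. B2m, the light chain of MHC class I, had a log2FC of 0.31. In the Notch pathway, with 4.35% called in each direction, 1 of 23 rose, the ligand gene Jag2 (log2FC 1.64), and 1 fell, the ligand gene Dll1 (12.7, 13.6 and 9.12 CPM against 5.4, 4.63 and 4.51 CPM; log2FC −1.29, SE 0.19, adjusted p = 0.00012). Leaving out TDEC replicate 1 gave 3 Notch genes lower, and leaving out TDEC replicate 2 or replicate 2 or 3 of day 2 gave 2. The receptor genes Notch1 and Notch3 had log2FC values of −0.35 and 0.02, and Jag1 had 0.87. Without replicate 3 of day 2, Notch3 was at −0.06.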
